A study of Mus musculus with 8 samples.

Results

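The combined treatment of mouse liver with a human LXRα transgene and the LXR agonist T0901317 was compared with the control that received neither. Both sets were chosen by their labels alone, and they hold 4 of the 8 arrays of the series: 2 arrays of livers given LXRα and T0901317 (LXRα T0901317 livers) and 2 of livers given GFP and vehicle (GFP vehicle livers). The series also holds 2 arrays of LXRα livers given vehicle and 2 of GFP livers given T0901317, which are used only to set the combined difference beside each single step. All mice, controls included, shared a C57B6 background. Each had received an AAV2.8 vector at 10 weeks of age, had eaten a Western diet for 12 weeks, and was 8 months old. The vector carried GFP or human LXRα behind the human thyroxine binding globulin promoter, which is active in hepatocytes. T0901317 was given at 5 mg/kg, or vehicle alone, by intraperitoneal injection for 3 days. Liver RNA was measured on Affymetrix arrays, 1 array per mouse, so the design compares 2 livers with 2 livers. Its precision is limited by these few arrays, and p-values measure only how the samples within a group spread.

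LXRα is a nuclear receptor that binds oxysterols and, as a heterodimer with RXR, raises transcription of genes for cholesterol efflux, biliary sterol secretion and fatty acid synthesis. In mouse liver its best known targets are the sterol transporters Abca1, Abcg5 and Abcg8, the bile acid enzyme Cyp7a1, and Srebf1, which encodes the lipogenic factor SREBP-1c. T0901317 activates LXRα and LXRβ and also binds the xenobiotic receptor PXR.

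No probe set passed the test of the combined treatment against GFP vehicle. With limma and Benjamini-Hochberg adjustment over 15838 probe sets, 0 (0%) had an adjusted p under 0.05. At an adjusted p under 0.10 there were 2 (0.0126%), and at an unadjusted p under 0.05 there were 1643 (10.4%). Below, a gene is described by its brightest tested probe set that is not of the type prone to cross-hybridisation (x_at), unless it has no other, and differences are log2 of LXRα T0901317 over GFP vehicle with the standard error (SE) of the fit. Of 9359 genes, 2118 (22.6%) were brighter on both LXRα T0901317 arrays than on either control array, and 1433 (15.3%) were dimmer on both. The median difference over these genes was near 0, with 4639 higher and 4717 lower. The count of calls rested on single arrays. It ranged from 0 to 494 when each array was left out, with 494 (172 higher and 322 lower) without LXRα T0901317 replicate 1 and 33 without GFP vehicle replicate 1. Without LXRα T0901317 replicate 2 it was 2, and it was 1 without GFP vehicle replicate 2 or without either array of GFP livers given T0901317.

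The 2 LXRα T0901317 arrays differed from each other in the quality control probe sets. The ratio of the 3′ to the 5′ control probe set of β-actin, a standard check of RNA and labelling, was 2.21 and 2.08 on the GFP vehicle arrays. On the LXRα T0901317 arrays it was 2.75 and 36.3. For Gapdh the ratio was 1.06 and 1.07 against 1.27 and 19.7, and for the spiked-in bacterial dap transcript it was 1.89 and 2.2 against 2.86 and 21.8. Replicate 2 stood apart in these 3 ratios, the spiked-in transcript included, while replicate 1 lay close to the controls. For pyruvate carboxylase both treated arrays were high, at 26.4 and 51.9 against 4.75 and 6.78. The ratio of the transferrin receptor did not set it apart, at 1.25 and 1.28 against 1.21 and 1.32. The 5′ probe set of 18S rRNA separated the groups completely, at 4052 and 3668 on the GFP vehicle arrays and 31.4 and 25.5 on the LXRα T0901317 arrays. Over all tested probe sets LXRα T0901317 replicate 1 correlated with its partner at r = 0.949 and with the GFP vehicle arrays at 0.973 and 0.960. With the β-actin ratio as a term in the fit, 2 probe sets were called and the median of the LXR targets described below was 0.96. Values without replicate 2 stand beside some of the results that it moves, but not beside all. Of genes described below, leaving it out took Pdk4 from 1.96 to 3.05, C1qa from -1.97 to -0.99 and Sdf2l1 from -1.52 to -0.66. Where LXRα T0901317 replicate 1 was left out, replicate 2, with its high β-actin, Gapdh and dap ratios, was the only treated array. That lone array was then assumed to vary like the other groups.

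**Figure D1:**
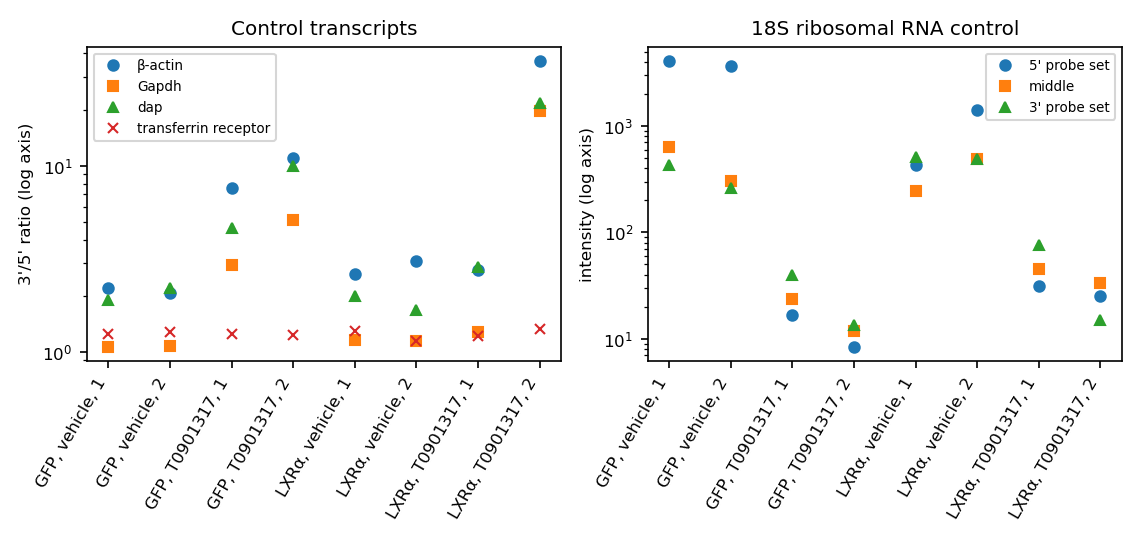
Left, the 3′ to 5′ ratio (log axis) of 4 control transcripts on each of the 8 arrays, and right, the intensity (log axis) of the 3 control probe sets of 18S rRNA, with 1 point per array. LXRα T0901317 replicate 2 has the highest ratios of β-actin, Gapdh and dap (36.3, 19.7 and 21.8), and replicate 1 (2.75, 1.27 and 2.86) lies near the GFP vehicle arrays.

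The labels were checked against liver and receptor genes. Albumin (Alb) was bright on all arrays, at 31022 and 26944 on the GFP vehicle arrays and 27420 and 25693 on the LXRα T0901317 arrays. The probe set of Nr1h3, the mouse gene for LXRα, read 128 and 170 against 163 and 62.6. Its groups overlapped, with a difference of -0.55 (SE 0.45), which turned to 0.14 without LXRα T0901317 replicate 2. The labels call the transgene human, and no source used here says whether this mouse probe set detects it. The partner receptor gene Rxra read 492 and 492 against 458 and 209, and the PXR gene Nr1i2 read 25.5 and 28.4 against 38.6 and 28.2. Neither difference passed the test.

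Genes known as direct LXR targets were mostly brighter with the combined treatment. Of 18 listed, 17 were tested, 15 had a positive difference and 2 a negative one. The 2 LXRα T0901317 arrays lay above both control arrays for 12 (70.6%), beside 22.6% of all genes, and below both for 0. At an unadjusted limma p under 0.05, 7 were higher and 0 lower, beside 736 (7.86%) and 228 (2.44%) of all genes. The median difference of the list was 0.72, beside a median near 0 over all genes, and none passed the adjusted test. Each array on its own gave a positive list median over the control mean, 0.88 on replicate 1 and 0.59 on replicate 2.

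Cyp7a1, Rnf145, Abcg5 and Abcg8 had the largest differences of this group. Cyp7a1, whose product commits cholesterol to bile acids, read 77.8 and 68.2 in GFP vehicle livers and 412 and 671 after the combined treatment. The groups were far apart, a 7.22-fold difference (2.85, SE 0.30, adjusted p = 0.106 in limma). A second, dimmer probe set read 57.4 and 51 against 262 and 60.1 (1.22, SE 0.66), with LXRα T0901317 replicate 2 close to the controls. Abcg5, half-transporter of the pair that secretes sterols into bile, read 484 and 448 against 2278 and 1652, a difference of 2.06 (SE 0.35, adjusted p = 0.214). Its partner Abcg8 read 126 and 107 against 497 and 377, with 1.90 (SE 0.28, adjusted p = 0.214). In both genes the lowest treated liver exceeded the highest control liver by a wide margin. Rnf145, an endoplasmic reticulum ubiquitin ligase of sterol regulation, read 107 and 94.2 against 482 and 386, a difference of 2.10 (SE 0.24, adjusted p = 0.113). Without LXRα T0901317 replicate 1, Cyp7a1 and Rnf145 differed by 3.2 and 1.94, on replicate 2 alone. Without replicate 2 they differed by 2.5 and 2.26.

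Abca1, which loads cholesterol onto apolipoprotein A-I, depended on the probe set. Its brightest read 937 and 747 against 1539 and 1861, a difference of 1.02 (SE 0.26). The other two differed by -1.83 and -1.18, with LXRα T0901317 replicate 2 at 6.30 and 20.3 on them and replicate 1 at 259 and 195. The mean over its probe sets was -0.67. Among other efflux and uptake genes, Mylip, which encodes a ubiquitin ligase, read 136 and 137 against 307 and 179, without overlap. Abcg1, a cholesterol efflux transporter, read 349 and 262 against 344 and 368, where the groups overlapped.

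The promoters of these sterol genes are shown because LXR is known to bind 2 copies of AGGTCA spaced by 4 bases. Sequences are from RefSeq, build GRCm38.p6, in windows from 250 bases before to 50 after each start site. Abca1 is the stretch chr4:53159896-53159995 on the minus strand, read along the gene, with its closest match to the motif in capitals (3 mismatches among the 12 bases compared, read on the opposite strand). Abcg5-Abcg8 is the whole interval between the start sites of these head-to-head genes, chr17:84683012-84683120 on the plus strand, with no capitals because its closest match had 4 mismatches.
Abca1: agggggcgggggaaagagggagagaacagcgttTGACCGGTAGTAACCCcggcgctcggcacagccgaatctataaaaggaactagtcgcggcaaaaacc
Abcg5-Abcg8: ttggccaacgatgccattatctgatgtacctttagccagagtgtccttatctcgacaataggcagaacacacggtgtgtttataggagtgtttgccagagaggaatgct
Searched on both strands, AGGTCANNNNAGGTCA with at most 2 mismatches lay in 3.02% of all 32851 promoter windows and in 0 of the 20 windows of the 12 LXR target genes that matched. With at most 3 mismatches, a limit added after the data were seen, it lay in 21.9% of all windows and in 4 (20%) of theirs. These matches describe the letters of the windows and identify no binding site.

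Lipogenic and lipoprotein targets were higher by smaller amounts. Srebf1, the gene of SREBP-1c, read 1575 and 644 against 2273 and 4592, a difference of 1.68 (SE 0.49, adjusted p = 0.353). Fasn, which encodes fatty acid synthase, read 1643 and 659 against 2806 and 2892 (1.45, SE 0.56). Both genes had control livers that differed more than 2-fold from each other, and the groups still did not overlap. Lpl, lipoprotein lipase, read 1640 and 1440 against 2777 and 2313 (0.72), and its other probe set overlapped between groups (0.27). Lpcat3, which puts polyunsaturated chains into phospholipids, read 562 and 399 against 911 and 620 (0.67). Pltp, the phospholipid transfer protein, read 3055 and 2888 against 3869 and 4880 (0.55), and its other probe set overlapped between groups. On the probe sets that stand for Lpl, Lpcat3 and Pltp, both treated livers exceeded both controls.

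Several other known targets differed by less or overlapped. Scd1, the main hepatic stearoyl-CoA desaturase, read 16941 and 16526 against 20980 and 21232 (0.33). A second Scd1 probe set gave -0.61, with LXRα T0901317 replicate 2 at 1916 against 5456 on replicate 1, and the mean of both was -0.14. Mlxipl, the gene of the carbohydrate sensor ChREBP, read 408 and 248 against 566 and 403, with 1 treated liver below 1 control. Apoe read 23450 and 19928 against 20489 and 18321, and Apoc2, an activator of lipoprotein lipase, 1983 and 3300 against 2071 and 2275. Apoc2 had a negative difference of -0.24 that became 0.13 without GFP vehicle replicate 2. Smpdl3a, a lipid phosphodiesterase, differed by 0.19, and by -0.02 without LXRα T0901317 replicate 2.

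**Figure D2:**
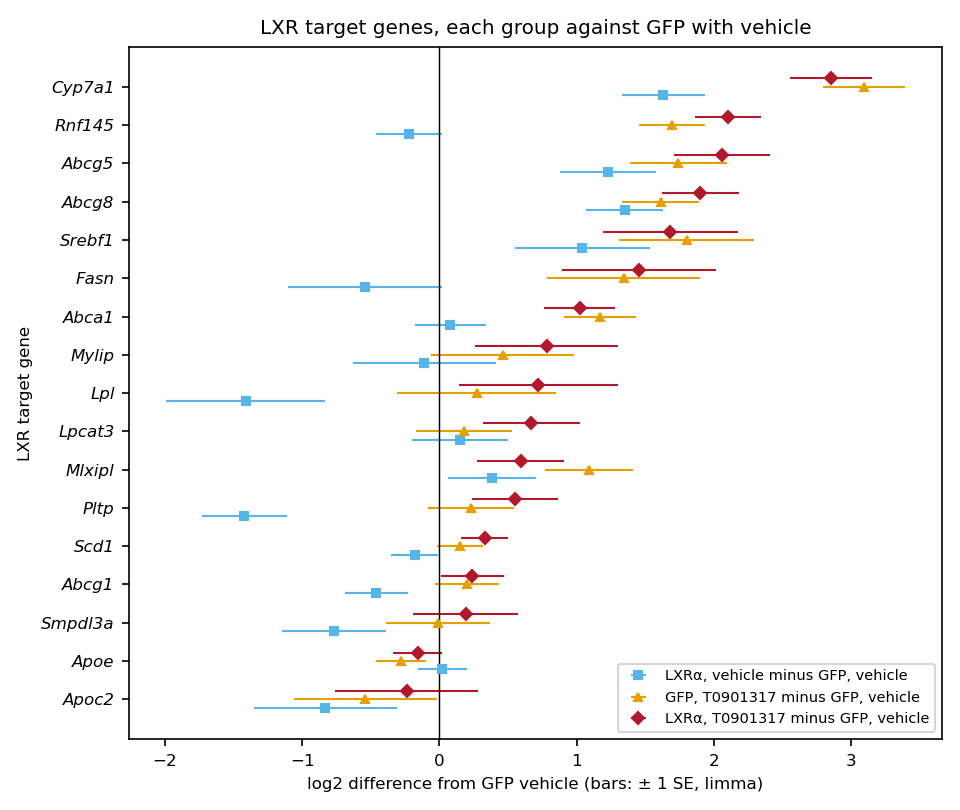
Difference from GFP vehicle (log2) of each tested LXR target gene in the other 3 groups, with bars of ± 1 SE from limma. For the combined treatment (diamonds) Cyp7a1, Rnf145, Abcg5 and Abcg8 lie farthest to the right, from 2.85 to 1.90, and Apoe and Apoc2 lie below 0.

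Genes of fatty acid and triglyceride synthesis were mostly higher too. Of 23 tested members, 16 were higher and 7 lower, and 12 (52.2%) did not overlap in the higher direction beside 22.6% of all genes, with 2 (8.7%) lower. The list median was 0.42, 0.33 without LXRα T0901317 replicate 2, and 0.18 with all probe sets of a gene averaged. Elovl6, which elongates palmitate, read 371 and 213 against 1440 and 1772, a difference of 2.51 (SE 0.51, adjusted p = 0.258), and its other probe set gave 2.65. Acacb, the acetyl-CoA carboxylase that also restrains fatty acid oxidation, read 86.8 and 189 against 622 and 923 (2.57, SE 0.76). Acss2, which makes cytosolic acetyl-CoA, read 556 and 776 against 3047 and 2626 (2.11, SE 0.65). In these genes both treated livers were above both controls, and the treated pair lay close together. Scd2, a desaturase that is low in adult liver, read 212 and 141 against 1495 and 607 (2.46, SE 0.58), with replicate 1 above replicate 2 by more than 2-fold. Its other probe set read 28.9 and 33.7 against 439 and 11.8 (1.2, SE 1.53), with LXRα T0901317 replicate 2 below both controls.

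Sterol synthesis genes were higher by less and depended on 1 control liver. Of 17 tested, 8 (47.1%) did not overlap in the higher direction and 1 (5.88%) in the lower, beside 22.6% and 15.3% of all genes. The median of 0.36 was 0.05 without GFP vehicle replicate 1 and 0.56 without GFP vehicle replicate 2. Sqle, squalene epoxidase, read 26.7 and 37.9 against 124 and 48.9 (1.29). Idi1, the isopentenyl diphosphate isomerase, read 204 and 294 against 553 and 411 (0.96), and Cyp51, lanosterol demethylase, 101 and 138 against 246 and 194 (0.89). None of these passed the test. Stard4, a sterol carrier, read 73.8 and 170 against 177 and 225, and its other probe set gave -0.29.

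Bile acid genes other than Cyp7a1 were mostly lower. Of 18 tested, 12 had a negative difference, and 6 (33.3%) did not overlap in the lower direction beside 15.3% of all genes, with 3 (16.7%) higher. The median was -0.24, 0.01 without GFP vehicle replicate 1, -0.11 without LXRα T0901317 replicate 1 and -0.15 without its replicate 2. Cyp8b1, the sterol 12α-hydroxylase that directs synthesis to cholic acid, read 472 and 406 in GFP vehicle livers and 75.4 and 140 after the combined treatment. Its difference of -2.09 (SE 0.38, adjusted p = 0.214) ran against that of Cyp7a1 in the same livers. Slco1b2, a basolateral organic anion transporter that takes up bile acids, read 5331 and 4474 against 2655 and 2404 (-0.95, SE 0.23). Another of its probe sets overlapped, at 2365 and 1801 against 1412 and 2992 (-0.01), and the rest gave -0.12 and -4.47. Nr0b2, the gene of the repressor SHP, read 191 and 215 against 133 and 88.1 (-0.91, SE 0.32). On the probe set that stands for each of these 3 genes, the treated livers were below both controls.

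Genes of fatty acid oxidation under PPARα showed no common direction, but 3 members had large positive differences. The 23 tested members had a median of 0.05, from -0.07 without LXRα T0901317 replicate 1 to 0.15 without its replicate 2. Of them 6 (26.1%) were higher without overlap and 2 (8.7%) lower, beside 22.6% and 15.3% of all genes. Acot1, a cytosolic acyl-CoA thioesterase, read 165 and 222 against 1953 and 543 (2.43, SE 1.06). Ehhadh, the bifunctional enzyme of peroxisomal β-oxidation, read 1653 and 1780 against 9273 and 4121 (1.85, SE 0.59). Pdk4, which blocks pyruvate oxidation, read 41.6 and 31.3 against 299 and 65.5 (1.96, SE 0.64). In all 3, LXRα T0901317 replicate 1 was more than 2-fold above replicate 2. Ppargc1a, the coactivator gene of gluconeogenesis and oxidation, read 39.6 and 57.2 against 40.7 and 14.9. Its difference of -0.95 was -1.67 without LXRα T0901317 replicate 1 and -0.22 without its replicate 2. The other 3 probe sets of Ppargc1a gave 0.04 to 0.22.

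Glucose genes were lower where they separated. None of the 11 tested was higher without overlap and 4 (36.4%) were lower, beside 22.6% and 15.3% of all genes. The median was -0.26, or -0.11 without GFP vehicle replicate 1 and -0.54 without its replicate 2. Fbp1, fructose bisphosphatase of gluconeogenesis, read 7824 and 7164 against 4431 and 4376 (-0.77, SE 0.19). Ppp1r3c, a glycogen targeting subunit of protein phosphatase, read 200 and 170 against 57.9 and 96.8 (-1.30, SE 0.34). Ldha, lactate dehydrogenase, read 5431 and 3590 against 3523 and 2761. Pck1, the gluconeogenic carboxykinase, overlapped at 5839 and 6046 against 6289 and 2453, and its difference of -0.60 became 0.08 without LXRα T0901317 replicate 2.

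Lipoprotein genes showed little common direction, with a median of 0.13 over 15 genes that was -0.10 without GFP vehicle replicate 1. Lcat, which esterifies cholesterol in HDL, read 840 and 826 against 676 and 270, where replicate 2 set most of the difference of -0.96. Sort1, a sorting receptor, read 56.2 and 43.6 against 29.7 and 42.4 (-0.48), and another probe set gave 0.14. Apob read 2506 and 1720 against 494 and 2401, so 1 treated liver lay below both controls and the other between them. Its difference of -0.93 became 0.21 without LXRα T0901317 replicate 1. Scarb1, the HDL receptor, read 640 and 485 against 576 and 290. Its difference of -0.45 became 0.05 without LXRα T0901317 replicate 2, and its other 2 probe sets, 1 of them brighter, gave 0.25 and 0.14.

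**Figure D3:**
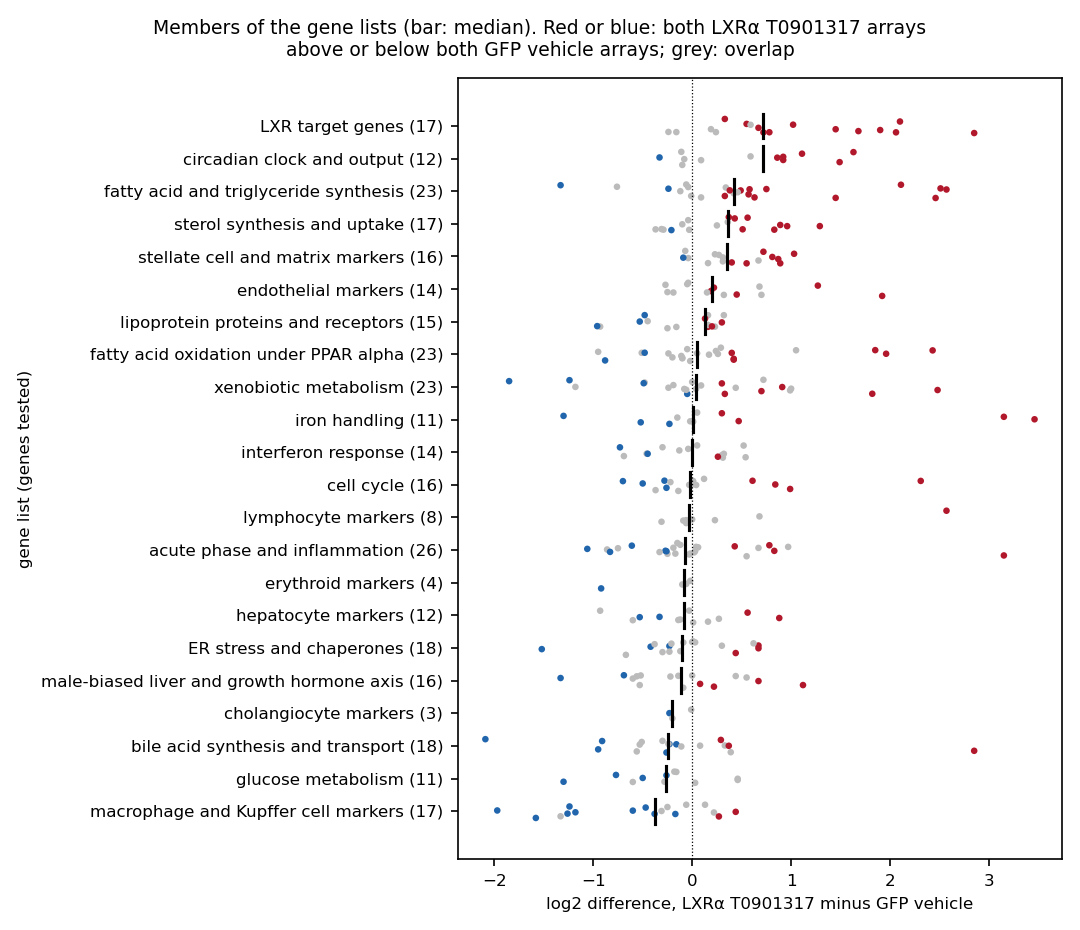
Differences (log2, LXRα T0901317 minus GFP vehicle) of the tested members of the 22 gene lists, ordered by their median (bar). Red and blue points are genes whose 2 treated arrays lie above or below both control arrays, and LXR targets (median 0.72) and macrophage markers (median -0.38) stand at the ends.

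The largest differences over the whole array were led by a fatty acid binding protein and the hepcidin genes. They were taken as the 12 largest in each direction among genes with an unadjusted p under 0.01 and groups that did not overlap. There were 217 such genes higher (2.32%) and 49 lower (0.524%), and since the rule used this contrast the values that follow are descriptions. Fabp5, a fatty acid binding protein of skin and fat, read 92.5 and 181 in GFP vehicle livers and 1619 and 3410 in LXRα T0901317 livers, 18.2-fold higher (4.18, SE 0.58, adjusted p = 0.214). Hamp, the gene of the iron hormone hepcidin, read 536 and 822 against 4243 and 8164 (3.15, SE 0.85). Its tandem copy Hamp2 read 54.5 and 338 against 1810 and 1228 (3.46, SE 0.80), with the controls themselves more than 6-fold apart. Both hepcidin genes were higher in both treated livers. Other iron genes lay on both sides of 0. The 11 tested had a median of 0.01, and Hmox1, which releases iron from haem, read 279 and 398 against 122 and 149 (-1.30). The iron exporter gene Slc40a1 read 1056 and 1041 against 1132 and 1480, and the mean over its probe sets was -0.47.

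The hepcidin pair is shown because the copies are nearly identical before their start sites. Over 247 bases the pair was 91.9% identical. The last 100 bases, from RefSeq build GRCm38.p6, are chr7:30944033-30944132 for Hamp and chr7:30924182-30924281 for Hamp2, both on the minus strand, with the 10 differing bases in capitals.
Hamp: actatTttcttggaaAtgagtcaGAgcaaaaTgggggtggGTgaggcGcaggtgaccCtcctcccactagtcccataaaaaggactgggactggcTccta
Hamp2: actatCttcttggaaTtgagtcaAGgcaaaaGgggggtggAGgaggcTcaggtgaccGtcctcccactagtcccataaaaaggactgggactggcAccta
Since the genes are close paralogs, the array values of Hamp and Hamp2 are uncertain as measures of separate genes.

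The other large positive differences were of mixed function. Ccnd1, cyclin D1 of the G1 phase, read 139 and 137 against 671 and 693, so both pairs agreed closely and lay far apart (2.31, SE 0.47, adjusted p = 0.258). Cyp2c55, a cytochrome P450 induced by xenobiotics, read 39.7 and 43.8 in treated livers and 4.19 and 3.93 in controls. The control readings lay under the floor of 7.5 that was set before the log, so its size, 2.48, depends on the floor. It was 3.18 with a floor at 4.59. Left out in turn, each array of GFP livers given T0901317 took the adjusted p to 0.00713 and 0.011. Both groups given vehicle were at the floor, with no spread there, so these p-values are not a measure of the spread between livers. Dapk2, a death-associated kinase, read 19.4 and 19.2 against 140 and 67.3 (2.33). Hdgf, a heparin-binding growth factor, read 46.2 and 71 against 213 and 381 (2.31), but its other probe sets gave 0.13 and 0.07. Dpt, the matrix protein dermatopontin, read 36 and 36 against 143 and 178 (2.15). Aak1, an endocytic kinase, read 17.9 and 18.2 against 98.9 and 163 (2.81), but its other probe set gave -0.29. Without LXRα T0901317 replicate 1, Fabp5, Aak1 and Hdgf differed by 4.72, 3.17 and 2.73, on replicate 2 alone. Without replicate 2 they differed by 3.64, 2.45 and 1.89.

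The large negative differences were less secure between probe sets. Hnrnpab, an RNA-binding protein gene, read 3304 and 2237 against 499 and 570 (-2.35, SE 0.49). Its other 6 probe sets ran from -1.36 to 0.92. Rbbp4, a histone chaperone gene, read 170 and 152 against 40.9 and 49.7 (-1.83), and its others gave -2.0 and 0.86. The noncoding RNA Tug1 read 173 and 125 against 61.6 and 32.6 (-1.71), with 0.38 and -0.22 from its others. The probe sets of Hnrnpab (-0.12) and Rbbp4 (0.86) with the highest intensity were of the x_at type and did not show these large negative differences. For these 3 genes the direction therefore differed with the probe set. Asgr1, a subunit of the hepatic asialoglycoprotein receptor, read 1743 and 2076 against 1050 and 634 (-1.22), and Slc22a30, an organic anion transporter, 553 and 449 against 214 and 194 (-1.29). Fancc, of the Fanconi anaemia pathway, read 107 and 107 against 35.6 and 47 (-1.39). The glutathione peroxidase Gpx2 read 44.6 and 61.6 against 27.6 and 18.9 (-1.20), Ggact 60.9 and 69.5 against 25.4 and 18.6 (-1.58), and Evi2a 65.1 and 49.2 against 31.9 and 14.3 (-1.40). All 6 were lower in both treated livers. Evi2a differed by -1.98 without LXRα T0901317 replicate 1 and by -0.83 without its replicate 2.

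Probe sets of the same gene could read in opposite directions. Of 3279 genes with several tested probe sets, 309 (9.42%) had 1 probe set higher and another lower in both treated livers than in both controls. The count was 737 (22.5%) for T0901317 on GFP and 229 (6.98%) for LXRα alone, all against the same GFP vehicle arrays. What share unrelated probe sets would give was not worked out.

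**Figure D4:**
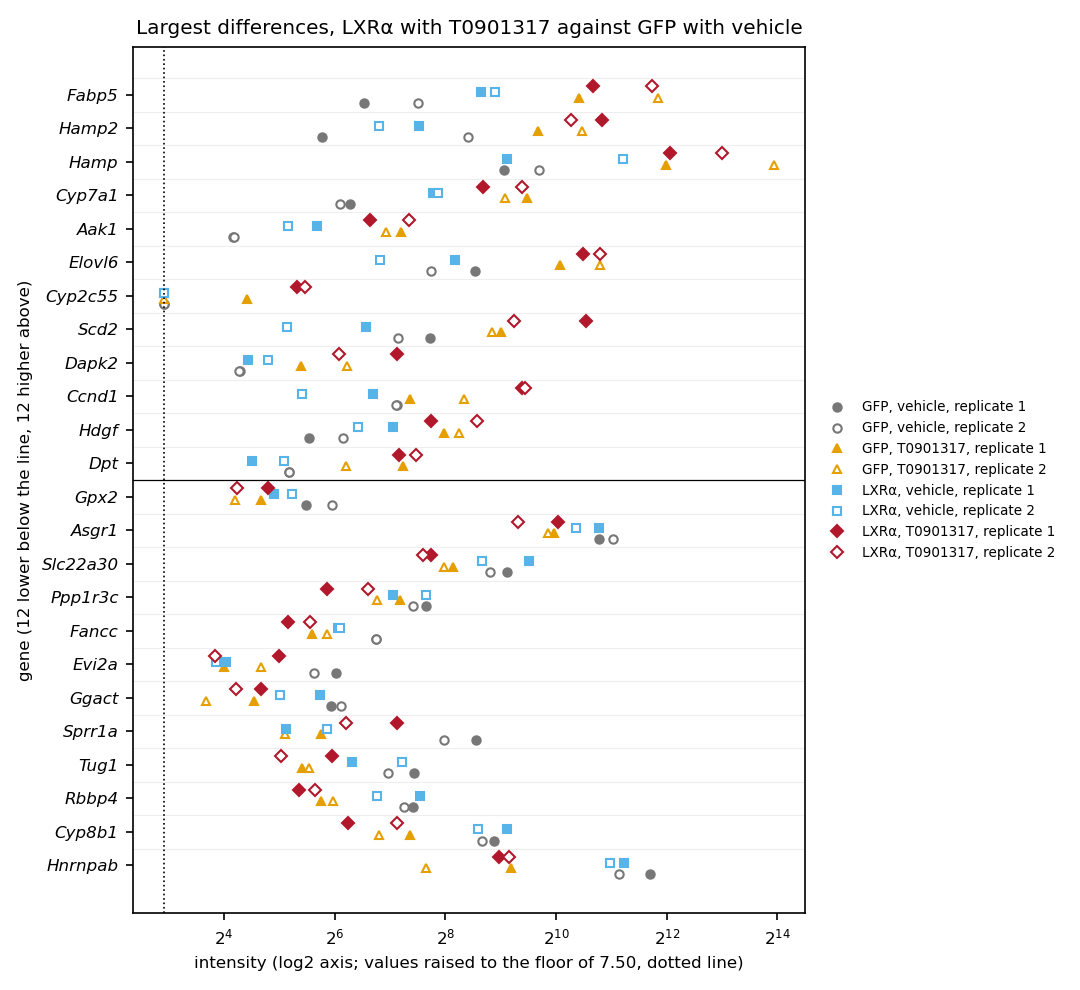
Intensity (log axis) on all 8 arrays of the 12 largest differences in each direction. Points are single arrays, Fabp5 shows the widest gap (92.5 and 181 against 1619 and 3410), and Hamp2 has the widest spread between control livers.

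Markers of other liver cells differed in direction by cell type. In whole liver, fewer cells of a type and less RNA per cell cannot be told apart. Of 17 macrophage and Kupffer cell markers, 13 had a negative difference, and 9 (52.9%) were lower without overlap beside 15.3% of all genes, with 2 (11.8%) higher. Their median was -0.38, -0.63 without LXRα T0901317 replicate 1 and -0.21 without its replicate 2, and their summed intensity was 18045 and 18956 in GFP vehicle livers and 15132 and 14084 after the combined treatment. No tested member was at the floor on both arrays of either group. The complement genes C1qa and C1qb read 1146 and 1184 against 588 and 150 and 1158 and 1535 against 656 and 304. The lipopolysaccharide receptor gene Cd14 read 93 and 112 against 70.4 and 26.4, and the lysozyme gene Lyz2 1605 and 2595 against 914 and 790. On these probe sets both treated livers lay below both controls, and replicate 2, the array of high 3′ to 5′ ratios, was the lowest. On 2 brighter C1qb probe sets of the x_at type the groups overlapped, at 3115 and 2522 against 1818 and 2797 (-0.31) and at 970 and 729 against 669 and 886 (-0.13). Mpeg1 (637 and 789 against 957 and 961) and Tyrobp (577 and 682 against 685 and 831) were higher without overlap. Clec4f (-0.31), Vsig4 (0.13) and Cd5l (-0.06) overlapped.

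Stellate cell, matrix and endothelial markers had positive medians. Of 16 stellate and matrix markers, 7 (43.8%) were higher without overlap and 1 (6.25%) lower, beside 22.6% and 15.3% of all genes, with a median of 0.35 and a summed intensity of 4477 and 2915 against 4895 and 5400. That median was 0.73 without GFP vehicle replicate 1. The basement membrane collagen gene Col4a2 read 98.2 and 65.6 against 152 and 176, Bgn (biglycan) 630 and 424 against 843 and 858, and Sparc 193 and 193 against 299 and 427. All 3 were higher in both treated livers, while Des was lower without overlap, at 28.4 and 28 against 25 and 27.9. Lrat (-0.07), Lum (-0.04) and the collagen genes Col1a1 (0.23), Col1a2 (0.27) and Col3a1 (0.16) overlapped. Of 14 endothelial markers, 5 (35.7%) were higher without overlap and 0 lower, beside 22.6% and 15.3% of all genes. Their median was 0.20, or 0.10 without LXRα T0901317 replicate 1. Lyve1, a hyaluronan receptor of sinusoidal endothelium, read 72.5 and 95 against 338 and 290 (1.92, SE 0.41), and Ptprb, a vascular phosphatase, 115 and 151 against 217 and 466. The canonical endothelial gene Cdh5 overlapped, at 53.9 and 63.3 against 62.5 and 141.

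Hepatocyte markers were nearly level, with a median of -0.08 over 12 genes that was 0.07 without LXRα T0901317 replicate 2, and a summed intensity of 101761 and 106255 against 108123 and 97840. Cps1, of the urea cycle, read 3548 and 3509 against 6591 and 6390 (0.88), and Cyp2e1 read 11893 and 11535 against 8260 and 10465 (-0.33). Hnf4a, the hepatocyte nuclear factor gene, read 819 and 840 against 1217 and 1223, but the mean over its probe sets was -0.68. The 8 lymphocyte markers had a median of -0.03, from -0.23 without LXRα T0901317 replicate 2 to 0.19 without its replicate 1, and their summed intensity was 357 and 295 against 3452 and 507. The immunoglobulin gene Ighm made up that excess, at 3332 and 320 in the treated livers, and 4 of its other probe sets were lower. The 3 cholangiocyte and 4 erythroid markers had medians of -0.20 and -0.08, which were 0.07 and 0.02 without LXRα T0901317 replicate 1.

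Genes of the circadian clock and its output had the same median as the LXR targets. It was 0.72 over 12 genes, 0.39 without GFP vehicle replicate 1 and 0.52 without LXRα T0901317 replicate 2, and 6 (50%) were higher without overlap and 1 (8.33%) lower, beside 22.6% and 15.3% of all genes. Hlf, a clock-controlled transcription factor gene, read 47.6 and 83.5 against 105 and 364. Its difference of 1.63 was 0.74 without LXRα T0901317 replicate 2, and its other probe set gave 0.34. The period gene Per2 read 20.2 and 23.9 against 45.1 and 49.6 (1.11), and Nr1d2 (REV-ERBβ) 219 and 404 against 659 and 478 (0.92). Tef, a factor related to Hlf, read 174 and 239 against 333 and 449 (0.92), but its other, dimmer probe set gave -0.04. No source used here gives the hour at which each liver was taken.

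The 23 tested genes of xenobiotic metabolism centred on a median of 0.04, with members on both sides. It was 0.13 without GFP vehicle replicate 2 and 0.13 without LXRα T0901317 replicate 2. Besides Cyp2c55, the carboxylesterase gene Ces2a read 425 and 329 against 1338 and 1293 (1.82, SE 0.55). The glutathione transferase gene Gsta3 read 7168 and 12349 against 4372 and 1568 (-1.85, SE 0.74), or -1.11 without LXRα T0901317 replicate 2. On its other probe set the groups overlapped, at 1018 and 1117 against 676 and 1109 (-0.3). Acute phase genes had a median of -0.07 over 26, from -0.23 without LXRα T0901317 replicate 2 to -0.01 without GFP vehicle replicate 2. Haptoglobin (Hp) read 20417 and 20227 against 15036 and 11760 (-0.61), the chemokine gene Cxcl1 90 and 135 against 80.9 and 34.7 (-1.06), and the inhibitor gene Nfkbia 909 and 1014 against 1445 and 1887 (0.78). Within the list, members therefore lay on both sides.

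ER stress genes had a median of -0.10 over 18, 0.07 without GFP vehicle replicate 1 and 0.02 without LXRα T0901317 replicate 2. The chaperone genes Calr (4660 and 3809 against 5665 and 7982) and Dnajb9 (337 and 464 against 658 and 601) were higher in both treated livers, and Sdf2l1 (313 and 156 against 140 and 42.5) was lower in both. Interferon response genes had a median of 0.00 over 14 that was 0.43 without GFP vehicle replicate 1 and -0.42 without LXRα T0901317 replicate 1, with the immunoproteasome gene Psmb9 at 138 and 233 against 90 and 131. Ifit3 differed by -0.46, and by 0.13 without GFP vehicle replicate 1. Cell cycle genes had a median of -0.02 over 16, or 0.04 when arrays were centred on their medians. The mitotic gene Cdk1 (29.4 and 30.9 against 17.7 and 19.6) was lower in both treated livers, unlike Ccnd1. Cdc20 read 26.2 and 24.6 against 17.9 and 17.9, but a brighter x_at probe set overlapped, at 25.9 and 22.6 against 23.1 and 22.5. The replication helicase gene Mcm7 read 163 and 75.4 against 212 and 228, but its other probe sets gave -0.72 and -0.27. Genes of male-biased liver expression and the growth hormone axis had a median of -0.11 over 16, 0.16 without GFP vehicle replicate 1 and 0.09 without LXRα T0901317 replicate 1. The growth hormone receptor gene Ghr read 2173 and 1998 against 1329 and 1248, and Igf1 read 1425 and 1955 against 1441 and 937. Another Ghr probe set overlapped, at 1241 and 1409 against 1032 and 1825 (0.05). The remaining Ghr probe set gave -2.54, with LXRα T0901317 replicate 2 at 7.98 and replicate 1 at 92.8.

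The combined difference was then set beside its single steps. The combined treatment, T0901317 on GFP and LXRα alone are all measured against the same GFP vehicle arrays, so their values are given side by side only. For Cyp7a1 the differences were 2.85 for both, 3.09 for T0901317 alone and 1.63 for LXRα alone. For Abcg5 they were 2.06, 1.74 and 1.23, and for Rnf145 2.10, 1.69 and -0.22. Fabp5 gave 4.18, 4.12 and 1.76, and Cyp8b1 -2.09, -1.70 and 0.07. Over the 17 LXR targets the medians were 0.72, 0.46 and -0.11.

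Adding LXRα to T0901317 gave no gene that passed. Against GFP livers given T0901317, 0 of 15838 probe sets (0%) were called with limma, and the other settings gave 0 or 1. The count was 5 without replicate 1 of those livers, 1 without LXRα T0901317 replicate 1 and 2 without its replicate 2. Cyp7a1 read 713 and 543 there and 412 and 671 with both, a difference of -0.24 (SE 0.30). Abcg5 differed by 0.32 (SE 0.35), and Fabp5 by 0.06 (SE 0.58). The arrays of GFP livers given T0901317 also had high β-actin ratios, 7.56 and 11.0. Among named genes, Cyp2c55 was at 21.4 and 6.73 with T0901317 on GFP and 39.7 and 43.8 with both (1.72, SE 0.42). Ccnd1 was at 165 and 322 against 671 and 693 (1.56, SE 0.47), and the transporter gene Slc22a7 at 60.4 and 167 against 16.5 and 22.6 (-2.38). The adjusted p was 1 for all 3, with the treated livers outside the range of the other pair.

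Adding T0901317 to LXRα gave 4 calls (0.0253%). Hsd3b5, a steroid dehydrogenase gene expressed mainly in males, read 846 and 1079 in LXRα livers given vehicle and 5.75 and 15 once T0901317 was added. It fell with an adjusted p of 0.00307 in limma. The fitted size, -6.49 on the log2 scale, is not exact, since 1 of the treated readings was under the floor of 7.5. The kinase gene Mast2 rose from 8.52 and 8.4, just above that floor, to 28.1 and 27.2 (1.71, SE 0.16, adjusted p = 0.0488 in limma). This count was 474 without LXRα T0901317 replicate 1 and 0 without replicate 2 of the LXRα livers given vehicle.

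The interaction, which tests whether the combined difference equals the sum of the single ones on the log2 scale, gave 1 call (0.00631%), Hsd3b5. It read 8.1 and 6.82 in GFP vehicle livers and 8.4 and 6.59 in GFP livers given T0901317, so LXRα alone was the group apart and the combined livers lay near the control. The interaction was -6.52 (adjusted p = 0.0314), a size that depends on the floor too, since each of the 3 low groups had 1 array under it. The combined difference itself was 0.44 (SE 0.32), with readings near the floor, and became -0.06 without LXRα T0901317 replicate 2. The interaction count was 0 with quantile normalization and ranged from 0 to 24 when single arrays were left out. It was 0 without GFP vehicle replicate 2, GFP T0901317 replicate 2 or LXRα vehicle replicate 2, and 24 without GFP vehicle replicate 1.

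Other genes of small interaction p did not pass. Ly6d, a surface antigen, read 1051 and 476 in GFP vehicle livers, 175 and 389 with T0901317 alone, 18.2 and 22.6 with LXRα alone and 565 and 324 with both. LXRα alone was the low group, at an interaction of 5.84 (SE 0.75, adjusted p = 0.45). Sprr1a, a cornified envelope protein gene, read 375 and 250, 54 and 34.4, 34.5 and 57.9 and 140 and 73.6 in the same order, so the control was the high group. Cyp2c70, which makes muricholic acids, read 1701 and 1584 in the control and 4512 and 4463 with both, while either single step gave 4736 and 7267 and 6320 and 5634. The combined livers were therefore no higher than the single ones, with an interaction of -2.25 (SE 0.35, adjusted p = 0.694).

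**Figure D5:**
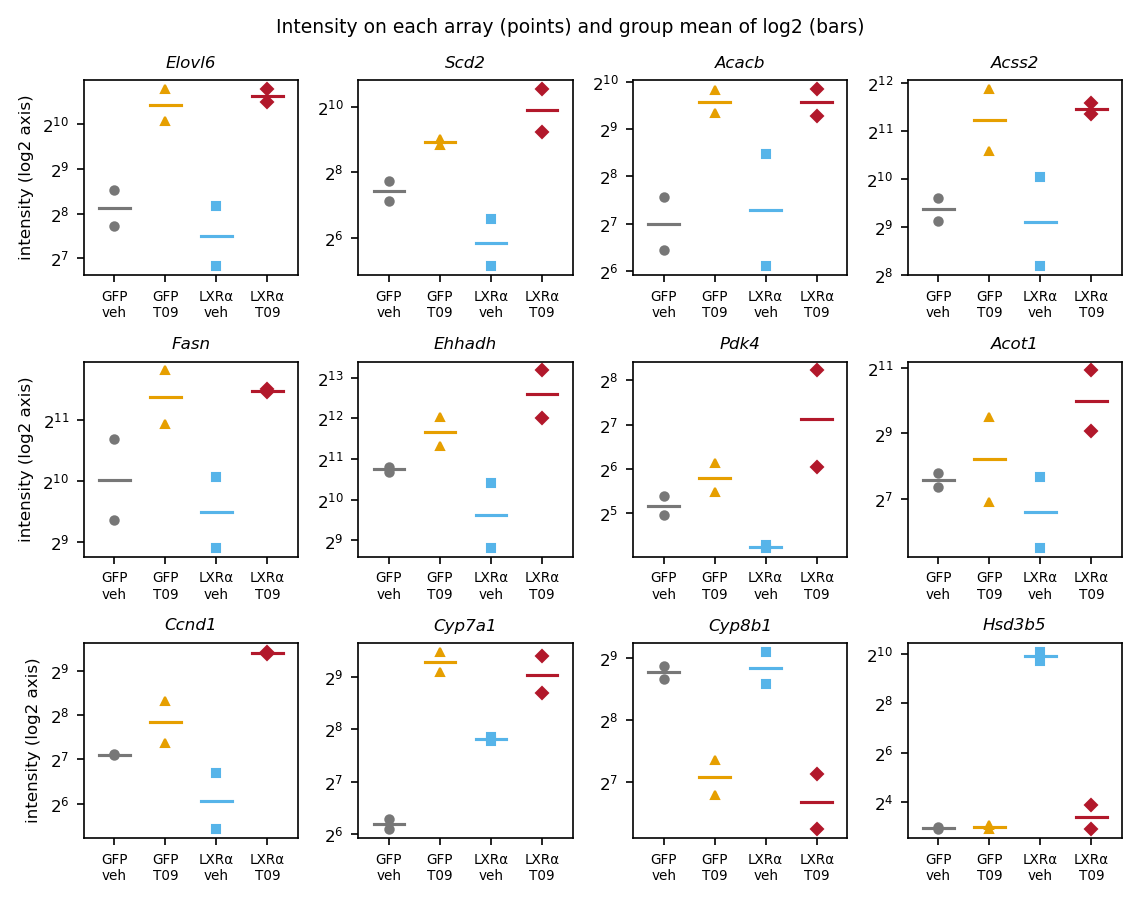
Intensity (log2 axis) of 12 genes in all 4 groups, with 2 arrays each as points and the group mean of log2 as a bar. Ccnd1 lies above every other group in the combined livers (671 and 693), and Hsd3b5 is high in LXRα livers given vehicle alone (846 and 1079).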

How the data were processed

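Liver RNA of 8 mice was measured on Affymetrix arrays, and groups were taken from the labels. The table deposited by the authors holds 1 linear intensity per probe set and array. Which tool summarised the probes, and how arrays were scaled, is not given in the sources used here. Of 22690 probe sets, 64 controls stayed out of the tests. Intensities were raised to a floor of 7.5 (20th percentile) and log2-transformed. Array medians spanned 0.141, and no further scaling was applied. Those with a mean above the 30th percentile entered limma 3.58.1 (R 4.3.3), in 1 fit of 4 group means on all 8 arrays with an intensity trend, and p-values were adjusted by Benjamini-Hochberg.

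Symbols came from the platform annotation, updated through RefSeq. 20380 probe sets had 1 symbol, 691 several and 1555 none, and the last 2 sets were not named. Of the 402 entries in 22 gene lists, 386 were different genes and 320 were tested. Named genes were the 12 largest differences in each direction at unadjusted p under 0.01 without overlap, all LXR targets, up to 4 members of each other list by p, the receptors and Alb, and 6 genes by interaction p. The comparison and the lists were chosen with earlier results of these data known. The limma code was tested on simulated data. One item of the mice's genotype, which all groups share, is not reported here.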

Additional observations from a re-analysis of the deposited data

Results flagged for a closer look

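Hsd3b5 differed between the agonist effect with the LXRα transgene and the agonist effect without it. The interaction was -6.52 on the log2 scale, by the interaction term of limma, and its size depends on the floor. LXRα livers given vehicle read 846 and 1079, and all other livers read from 5.75 to 15, so the combined livers lay at the level of the GFP controls.

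A signal in the control probe sets, which enter no comparison, also stood out. LXRα T0901317 replicate 2 had a β-actin 3′ to 5′ ratio of 36.3, above the 2.21 and 2.08 of the GFP vehicle arrays. The counts of calls with the ratio as a term in the fit, and without the arrays of high ratio, are given with the other alternatives.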

How the results depend on the processing

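The count of calls for the combined treatment was 0 with quantile normalization, median centring, another floor or offset, a stricter filter, no trend, a robust spread, the replicate block and the 4 arrays alone. It was 3 with no filter, 2 with a covariate for the β-actin ratio, 2 at an adjusted p under 0.10, and 5 without the 3 arrays of high β-actin ratio, which was added after seeing the data. Leaving out single arrays gave 0 to 494. For T0901317 added to LXRα, 4 calls became 7 with quantile normalization and 14 with no filter, and ran from 0 to 474 without single arrays. For LXRα added to T0901317, 0 became 1 with no filter and 1 with the covariate, and ran from 0 to 5. For LXRα alone, 1 became 11 with no filter and ran from 1 to 32. For T0901317 alone, 0 became 2 with no filter and ran from 0 to 43. The interaction count of 1 was 0 with quantile normalization, 8 with no filter and 2 with the covariate, and ran from 0 to 24. With no filter more probe sets are tested, and without an array fewer samples are. The cause of the other shifts was not tested.

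Replicate numbers did not pair the samples, since the deviations of same-numbered arrays correlated between -0.138 and 0.247. With the replicate number as a block the combined count stayed 0 and the interaction count was 0.

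Averaging all probe sets of a gene turned Abca1 to -0.67, Scd1 to -0.14, Slc40a1 to -0.47, Hnf4a to -0.68 and Mcm7 to 0. Without LXRα T0901317 replicate 2, without the 3 arrays of high ratio and with the covariate, Smpdl3a was -0.02, -0.02 and -0.03, Pck1 0.08, 0.08 and 0.15, Scarb1 0.05, 0.05 and 0.11, Nr1h3 0.14, 0.14 and 0.22, and Hsd3b5 -0.06, -0.06 and -0.14. Without single arrays the ranges were -0.02 to 0.40 for Smpdl3a, -1.28 to 0.08 for Pck1, -0.94 to 0.05 for Scarb1, -1.24 to 0.14 for Nr1h3, -0.06 to 0.94 for Hsd3b5, -2.07 to 0.21 for Apob, -0.60 to 0.13 for Apoc2 and -1.04 to 0.13 for Ifit3. Apob was 0.21 without LXRα T0901317 replicate 1, Apoc2 0.13 without GFP vehicle replicate 2, and Ifit3 0.13 without GFP vehicle replicate 1. The cause of these reversals was not tested. Of 112 named genes followed through the alternatives, 112 kept their direction and their side of the threshold with quantile normalization, with median centring and with the block. Without LXRα T0901317 replicate 1, 153 genes were called, 5 of them among the 24 largest differences. Probe sets near the floor, such as Cyp2c55 in the controls, have differences limited by it.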

Other observations

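The 2 probe sets of smallest p were not the ones that stand for their genes in the report. Those of Sdc3, a heparan sulfate proteoglycan, and Fam104a had differences of -1.65 (SE 0.14) and 2.09 (SE 0.19), both at adjusted p = 0.0949 in limma. A probe set of Afp, the fetal liver gene α-fetoprotein, was 2.94 higher (SE 0.34, adjusted p = 0.113), and both Malat1 probe sets of small p, of a nuclear noncoding RNA, were lower, by -2.78 and -2.38. These probe sets were chosen after their values were seen.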
